A study of Mus musculus with 9 samples.

Results

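The genes described here handle extracellular ATP and related nucleotides in the submandibular salivary gland of the mouse after radiation. They were taken as a fixed list of 10 genes: the ATP-gated channels P2rx4 and P2rx7, the G protein-coupled nucleotide receptors P2ry1, P2ry2, P2ry6 and P2ry14, the ectonucleotidases Entpd1, Entpd2 and Nt5e, and the ATP release channel Panx1. All 10 were found by symbol among the 54532 Ensembl genes of the read count table, and all 10 were among the 15224 genes with enough counts to be tested. The glands came from mice labelled WT that had received 10 Gy of radiation, and were collected 30, 60 or 90 days later, with 3 samples at each time point. Every group compared was irradiated, and the non-irradiated glands that the protocol mentions were not analysed here, so each difference is between times after radiation and cannot be told apart from a difference in age. The labels give no strain, sex, age or hour of harvest, and do not say whether the samples of a time point came from separate animals, so p-values measure only the spread between these samples, which may be technical.

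ATP leaves cells through pannexin channels, by exocytosis or from damaged cells, and acts on its neighbours through P2X receptors, which are cation channels opened by ATP, and P2Y receptors, which couple to G proteins. On the cell surface Entpd enzymes remove phosphates from ATP and ADP, and Nt5e converts the resulting AMP to adenosine, which has receptors of its own. In salivary glands, P2X receptors and P2Y receptors of acinar and duct cells are known to raise cytosolic calcium, alongside the muscarinic receptors that drive fluid secretion.

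The genomic sequences before the start sites of 4 transcripts are shown because P2ry14 was the member that changed, and because P2rx4 and P2rx7, neighbours on chromosome 5, were the most abundant nucleotide receptors. Each is the 250 bases upstream of a RefSeq start (GRCm38.p6), written 5′ to 3′ on the strand of the gene. Capitals mark matches on either strand to a set of motifs. They are TATAAA (the core of a promoter element near many start sites), GGGCGG (the motif of Sp1 and related factors) and CCAAT (the motif of the factor NF-Y). The others are TGANTCA (a loose form of the motif of the AP-1 factors, made of Fos and Jun) and TTCNNNGAA (the motif of STAT factors), where N is any base.
P2ry14, RefSeq start 1, chr3:59153493-59153742, minus strand: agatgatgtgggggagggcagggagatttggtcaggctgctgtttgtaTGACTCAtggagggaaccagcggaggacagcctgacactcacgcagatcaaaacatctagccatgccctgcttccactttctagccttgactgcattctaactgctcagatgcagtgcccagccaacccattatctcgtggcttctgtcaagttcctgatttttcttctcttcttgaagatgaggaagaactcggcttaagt
P2ry14, RefSeq start 2, chr3:59131329-59131578, minus strand: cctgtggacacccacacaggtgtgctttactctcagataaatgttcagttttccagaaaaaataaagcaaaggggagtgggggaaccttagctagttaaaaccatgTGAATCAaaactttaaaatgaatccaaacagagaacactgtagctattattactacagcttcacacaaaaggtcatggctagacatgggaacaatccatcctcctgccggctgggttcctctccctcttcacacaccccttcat
P2rx4, RefSeq start 1, chr5:122707294-122707543, plus strand: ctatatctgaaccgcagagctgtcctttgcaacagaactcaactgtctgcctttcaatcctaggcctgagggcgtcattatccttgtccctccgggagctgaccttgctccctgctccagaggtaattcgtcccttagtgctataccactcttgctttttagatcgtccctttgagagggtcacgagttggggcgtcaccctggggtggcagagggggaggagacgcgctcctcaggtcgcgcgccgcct
P2rx7, RefSeq start 1, chr5:122643677-122643926, plus strand: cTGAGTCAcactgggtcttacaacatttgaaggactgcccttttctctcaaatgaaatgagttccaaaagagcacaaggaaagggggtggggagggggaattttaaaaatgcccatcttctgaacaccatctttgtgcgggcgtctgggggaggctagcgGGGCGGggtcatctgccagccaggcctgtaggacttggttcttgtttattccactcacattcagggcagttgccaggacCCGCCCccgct

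RefSeq start windows were available for 9 of the 10 members, 15 windows in all, with none for P2ry6. The TGANTCA motif lay in the first and second of the 4 P2ry14 windows, 202 to 196 and 144 to 138 bases before the start, and in 4 of the 15 member windows, against 6.75% of all 32851 RefSeq windows of the same length. In the first of these P2ry14 windows the match read TGACTCA and in the second TGAATCA. The P2ry14 windows shown are thus only those with a TGANTCA match. The third P2ry14 window, not shown, held no match to any of the 5 motifs. The fourth, also not shown, held TATAAA at 118 to 113 and CCAAT at 245 to 241 and at 38 to 34 bases before the start. The P2rx4 window held no match to any of the 5 motifs. The P2rx7 window shown held GGGCGG at 90 to 85 and at 11 to 6 bases before the start, and TGANTCA at 249 to 243, while the other RefSeq window of P2rx7 held no match. GGGCGG lay in 6 of the 15 member windows and in 32.7% of all windows. CCAAT lay in 4 of 15 and in 33.8%. TATAAA lay in 1 of 15 and in 12.4%, and TTCNNNGAA in 0 of 15 and in 7.02%. Among all matches in these windows only GGGCGG overlapped another match, in Nt5e. Some windows of P2ry14, and both of P2ry2, overlap each other. A match to a motif of this length is a description of the letters and does not show binding.

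The 9 libraries held 16541396 to 26065856 counts. The 30-day libraries were the shallowest, at 16541396 to 17179500 counts, against 21722141 to 24880803 at 60 days and 20410818 to 26065856 at 90 days. The secretory gene Mucl2 took 31.4% to 42.8% of the counts of a library, so values are given as CPM (each count divided by its library total and scaled up by a common factor) after TMM scaling, which adjusts the totals for such dominant genes. The labelled tissue was checked against markers: the acinar genes Aqp5, Bhlha15, Ano1, Slc12a2 and Chrm3 summed to 1545 to 2612 CPM per library and 7 genes of granular and striated ducts to 17983 to 31427 CPM, while 4 lymph node genes summed to at most 1.44 CPM and 4 adipocyte genes to at most 2.73 CPM. Sample 2 at 90 days stood apart in immune genes: its B and plasma cell markers summed to 58.4 CPM, against 13.4 and 17.6 CPM in the other 90-day libraries, and its macrophage markers to 389 CPM, against 234 and 248 CPM. In whole tissue, a change in the number of cells of a type and a change in RNA per cell cannot be told apart.

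P2rx4 was by far the most abundant member. Per kilobase of annotated exon, its median over the 9 libraries was 16.5 CPM (14.1 to 19.4), at the 91.6th percentile of the tested genes, and its lowest library lay above the highest library of every other member. Entpd2 (median 4.96 CPM per kb, range 3.49 to 6.96), P2rx7 (4.54, range 3.76 to 5.49) and Entpd1 (3.93, range 2.53 to 5.38) followed, with ranges that overlapped one another. P2ry6 came next at 1.39 CPM per kb (0.884 to 2.54), above P2ry1 at 0.622 (0.392 to 1.02) in 9 of 9 libraries. P2ry14 stood at 0.500 CPM per kb (0.205 to 0.584), below P2ry1 in 6 of 9 libraries. The order depends on the annotated lengths, which join the exons of all transcripts: 11.06 kb for P2ry14 and 4.29 kb for P2ry1. In CPM without this division, P2ry14 stood above P2ry1 in every 60-day and 90-day library and below it in every 30-day library. Nt5e (0.262, range 0.165 to 0.385), P2ry2 (0.184, range 0.0773 to 0.499) and Panx1 (0.118, range 0 to 0.208) were the scarcest and overlapped their neighbours in this order. Panx1 lay at the 3.29th percentile of the tested genes. In each of the 9 libraries the ATP-gated channels and the Entpd enzymes stood above all 4 P2Y receptors in level per exon length.

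**Figure D1:**
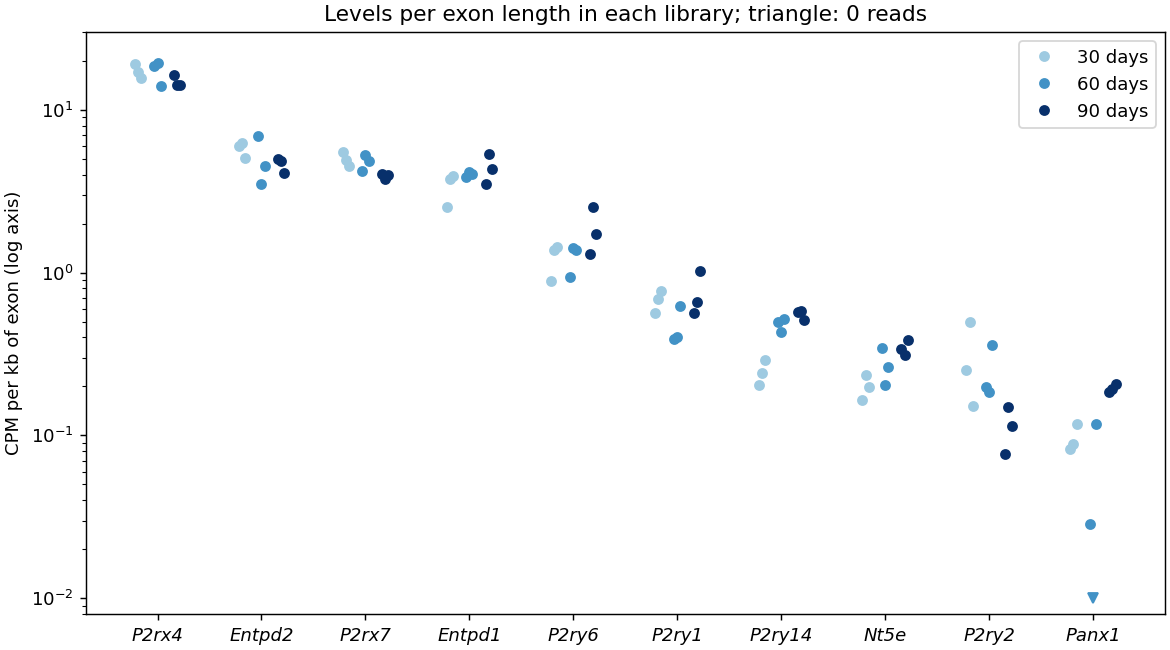
Level of each member in each of the 9 libraries, as TMM-scaled CPM per kilobase of annotated exon on a log axis, with members in order of their median. Points are libraries and shades are days after irradiation, and the triangle marks the 60-day library with 0 Panx1 reads, drawn at the foot of the axis. P2rx4, between 14.1 and 19.4, stands apart from all others, and neighbouring members below it overlap.

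Between 30 and 90 days after radiation, P2ry14, the receptor for UDP-glucose and related UDP-sugars, rose and the other 9 members did not pass the threshold, an edgeR adjusted p of 0.05. Counted over the list, 1 of 10 members passed between 30 and 60 days, where 1.56% of all tested genes did, and 1 of 10 between 30 and 90 days, where 3.57% did. Between 60 and 90 days 0 of 10 passed with edgeR, DESeq2 and limma-voom alike, where 0.256% of all genes passed with edgeR. In the test of any difference among the time points 1 of 10 passed, against 3.29% of all genes. At an unadjusted p under 0.05 the members numbered 1 of 10 for 60 against 30 days (12.4% of all genes), 5 of 10 for 90 against 60 days (10.8%), 6 of 10 for 90 against 30 days (16.8%) and 5 of 10 for any difference (16.7%). The libraries of the groups did not overlap for 1 member between 30 and 60 days (16.9% of all genes), 3 between 60 and 90 days (15.9%) and 6 between 30 and 90 days (23.2%). Of these 6, P2ry14, Nt5e and Panx1 were higher at 90 days (11.4% of all genes) and P2rx7, P2ry2 and Entpd2 were lower (11.8%). The median log2 difference over the members was 0.25 from 30 to 90 days, against 0.01 over all tested genes, with 6 members above 0. The contrasts share libraries, so their counts are not separate evidence. The list was chosen with earlier results of these data known, so its counts beside those of all genes are a description only.

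P2ry14 levels rose between 30 and 60 days. The 30-day libraries measured 2.27, 2.67 and 3.20 CPM, from 32, 45 and 54 reads. The 60-day libraries measured 5.53, 4.79 and 5.72 CPM, from 128, 106 and 137 reads, and the 90-day libraries 6.37, 6.46 and 5.67 CPM, from 189, 188 and 113 reads. Every 60-day and every 90-day library lay above every 30-day library, and the 60-day and 90-day libraries overlapped. The mean went from 2.71 ± 0.465 to 5.34 ± 0.487 and 6.17 ± 0.432 CPM (SD, n = 3 each).

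Between 30 and 60 days P2ry14 rose by 0.97 ± 0.21 on the log2 scale (SE), a 1.96-fold difference with a 95% interval of 1.44 to 2.68 (edgeR quasi-likelihood test, Benjamini-Hochberg adjusted p = 0.0265). Between 30 and 90 days it rose by 1.18 ± 0.21 (SE), 2.27-fold with an interval of 1.66 to 3.09 (edgeR adjusted p = 0.00386). From 60 to 90 days the log2 difference was 0.21 ± 0.20 (SE), with an interval of -0.20 to 0.62 (edgeR adjusted p = 0.764). The test for any difference among the time points gave an edgeR adjusted p of 0.00828, and 0.0532 and 0.0513 without 30-day samples 1 and 2. The contrast of 90 with 30 days passed the threshold under all 18 alternatives, with adjusted p-values up to 0.0250. The contrast of 60 with 30 days lost the call under 8 of 18, with log2 values between 0.87 and 1.11 throughout; without 30-day sample 1 the adjusted p was 0.135, without 30-day sample 2 it was 0.0963, and without 60-day samples 1, 2 and 3 it was 0.0607, 0.0677 and 0.0559. With the libraries thinned to the smallest total, so that their total counts but not their composition were equal, the rise was 1.05 to 60 days (adjusted p = 0.0202) and 1.19 to 90 days (adjusted p = 0.00452).

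**Figure D2:**
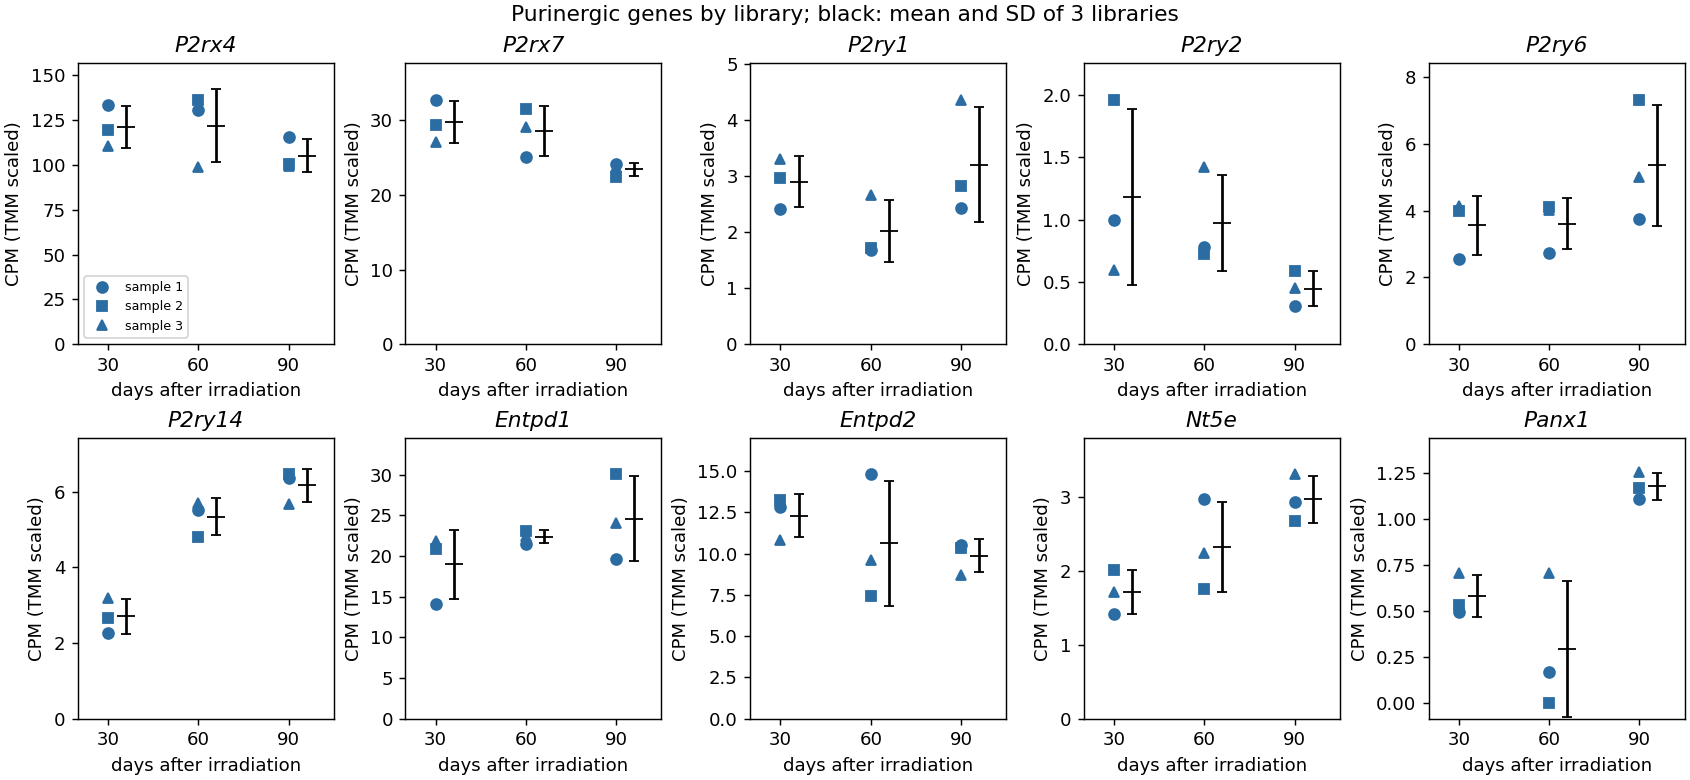
TMM-scaled CPM of each of the 10 members against days after irradiation, with a panel and a linear axis per gene. Blue symbols are libraries, shaped by sample number, and black bars give the mean and SD of 3 libraries. P2ry14 lies between 2.27 and 3.20 CPM at 30 days and at 4.79 CPM or more in all later libraries. Between 30 and 60 days the libraries of every other member overlap. Between 30 and 90 days those of P2rx7, P2ry2, Entpd2, Nt5e and Panx1 do not overlap either.

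The position of P2ry14 bears on how its reads can be counted. It spans chromosome 3, 59113855 to 59153618, minus strand (ENSMUSG00000036381, GRCm38), inside Med12l, a gene of the plus strand that also holds P2ry12 and P2ry13. No exon base of P2ry14 is shared with an exon of Med12l in GENCODE M21. Med12l itself had 5 to 25 reads per library, fewer than P2ry14 in all 9. P2ry13, a receptor for ADP, had 16 to 33 reads and P2ry12, also a receptor for ADP, 19 to 55, and neither passed the threshold in any contrast.

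Some cell type markers moved in the same direction as P2ry14. The summed myoepithelial markers ran from 271 to 362 CPM at 30 days, 397 to 408 at 60 days and 356 to 523 at 90 days. Of 6 tested, 5 had a log2 difference above 0 from 30 to 60 days, and 0 were called by edgeR, with 2 at an unadjusted p under 0.05. From 30 to 90 days 6 of 6 were above 0 and 1 was called higher. The granular and striated duct markers summed to 17983 to 22763, 26913 to 31427 and 22809 to 28234 CPM, with 2 of 7 called higher in each contrast against 30 days, and no marker of either list was at 0 in all libraries. The macrophage sums (167 to 314, 206 to 233 and 234 to 389 CPM) and endothelial sums (66.7 to 75.1, 64.0 to 64.3 and 70.5 to 81.9 CPM) at 30, 60 and 90 days followed other patterns: the macrophage sums of 30 days overlapped those of both later time points, and the endothelial sums were lowest at 60 days. The T cell sums ran from 0.851 to 1.48 CPM at 30 days, 0.777 to 1.94 at 60 days and 2.66 to 8.77 at 90 days, and the B and plasma cell sums from 3.97 to 9.57, 4.39 to 5.70 and 13.4 to 58.4 CPM. For both, all 90-day libraries lay above all earlier ones and the 30-day and 60-day libraries overlapped. Of 3 T cell and 2 B and plasma cell markers tested, 0 were called by edgeR from 30 to 90 days, with 2 and 1 at an unadjusted p under 0.05, and DESeq2 called 1 of each. In the test of any difference among the time points edgeR called 1 of the 3 T cell markers and 0 of the 2 B and plasma cell markers. The pericyte and smooth muscle sums ran from 134 to 189 CPM at 30 days, 170 to 210 at 60 days and 175 to 219 at 90 days. The fibroblast sums ran from 285 to 445, 275 to 393 and 348 to 408 CPM. For both, the time points overlapped and 0 of 5 markers were called by edgeR in any pairwise contrast. In each list 1 had an unadjusted p under 0.05 in each contrast against 30 days. The part of the myoepithelial, duct, smooth muscle, fibroblast and immune cell markers in the P2ry14 result was not tested.

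**Figure D3:**
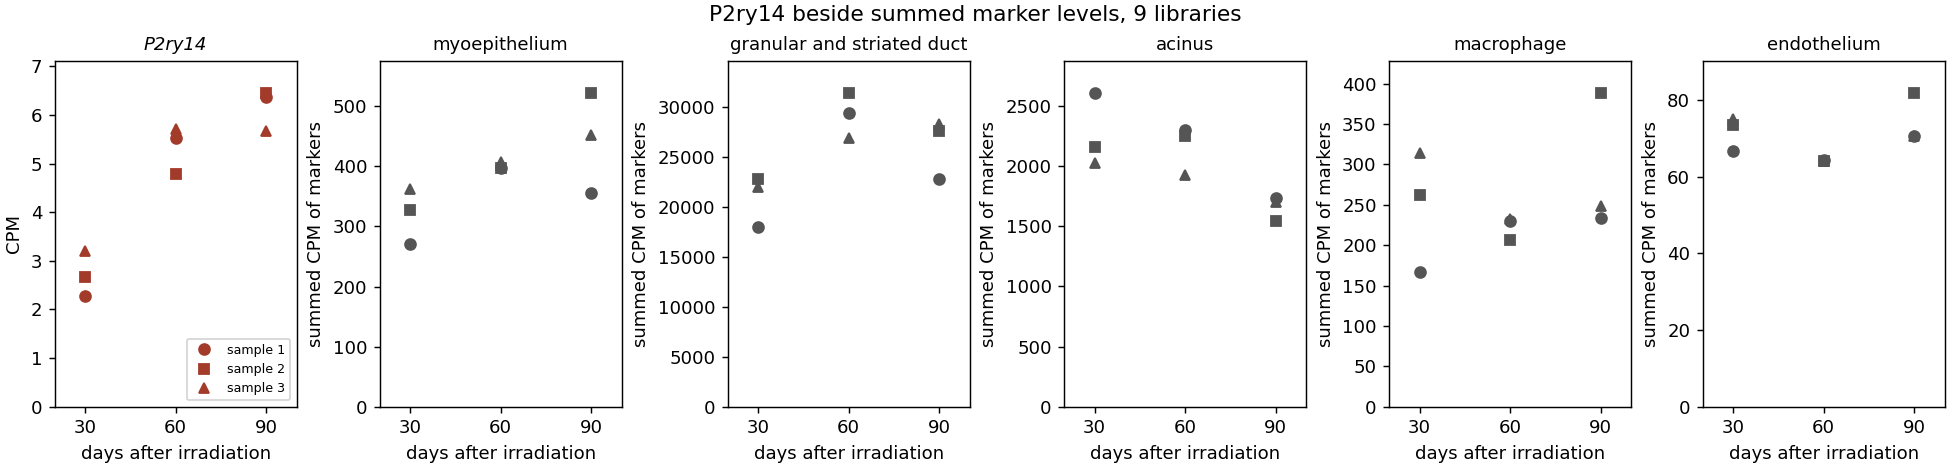
P2ry14 (CPM, left) beside the summed CPM of markers of 5 cell types against days after irradiation, with symbols for the 3 samples of each time point and linear axes from 0. The duct sums at 60 and 90 days lie above the 30-day sums, as P2ry14 does. The acinar sums are lowest at 90 days, and the macrophage sum of 389 CPM belongs to sample 2 at 90 days.

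The other P2Y receptors did not pass the threshold in any contrast. P2ry6, the receptor for UDP, measured 2.55, 3.98 and 4.14 CPM at 30 days, 2.72, 4.12 and 4.01 CPM at 60 days and 3.74, 7.32 and 5.02 CPM at 90 days. The time points overlapped. The highest value came from sample 2 at 90 days, the library high in immune markers, whose part in the P2ry6 values was not tested. The log2 difference from 30 to 90 days was 0.58 ± 0.28 (SE; edgeR adjusted p = 0.292), and without that library it was 0.28 (adjusted p = 0.799). P2ry1, a receptor for ADP, measured 2.41, 2.97 and 3.32 CPM at 30 days, 1.68, 1.72 and 2.67 CPM at 60 days and 2.43, 2.82 and 4.37 CPM at 90 days. Its values were lowest at 60 days with overlap on both sides, and the log2 differences were -0.52 ± 0.30 to 60 days and 0.65 ± 0.29 from 60 to 90 days (SE; edgeR adjusted p = 0.525 and 0.448). Of its exon bases, 23.1% are shared with an antisense gene, Gm37035, so reads there cannot be assigned with certainty. P2ry2, the receptor that responds to both ATP and UTP, was near the limit of detection with 9 to 34 reads per library. It measured 0.992, 1.96 and 0.592 CPM at 30 days, 0.777, 0.724 and 1.42 CPM at 60 days and 0.303, 0.584 and 0.452 CPM at 90 days. All 3 of the 90-day values lay below all others. The log2 difference from 30 to 90 days was -1.40 ± 0.53 (SE), with a 95% interval of -2.52 to -0.28 that includes both small and large falls (edgeR adjusted p = 0.177). Without 30-day sample 2 it was -0.81 (adjusted p = 0.600).

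The ratio of P2ry14 to another receptor within a library does not depend on how libraries are scaled. Its size, but not its course over time, depends on the annotated exon lengths. Per exon length, P2ry14 stood at 0.365, 0.349 and 0.374 times the level of P2ry1 in the 30-day libraries. The ratio was 1.27, 1.08 and 0.831 at 60 days and 1.02, 0.890 and 0.504 at 90 days, above every 30-day ratio in all 6. The mean of P2ry1 was itself lowest at 60 days (log2 difference of -0.52 from 30 days, edgeR adjusted p = 0.525), so this ratio reflects both genes. The uncertain assignment of P2ry1 reads applies here too. Relative to P2ry6 it was 0.232, 0.175 and 0.201 at 30 days, 0.530, 0.304 and 0.373 at 60 days and 0.444, 0.230 and 0.295 at 90 days, with overlap between 30 and 90 days. These ratios were chosen after the values had been seen and carry no test.

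The ATP-gated channels did not pass the threshold in any contrast. P2rx4 (ENSMUSG00000029470, chromosome 5, 122707544 to 122729738, plus strand) forms channels that conduct calcium at low ATP. It measured 134, 120 and 110 CPM at 30 days, 131, 136 and 98.7 CPM at 60 days and 116, 100 and 99.5 CPM at 90 days, and all 3 time points overlapped. From 30 to 90 days the fold was 0.869 with a 95% interval of 0.726 to 1.04 (edgeR adjusted p = 0.440), so at this depth, 1865 to 3431 reads per library, a change by as much as that of P2ry14 lay outside the interval. The log2 difference of -0.20 became 0.03 when libraries were scaled by their totals alone, a scaling under which the median of all tested genes moved from 0.01 to 0.24.

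P2rx7 (ENSMUSG00000029468, chromosome 5, 122643911 to 122691432, plus strand) needs high ATP to open and is known for inflammasome activation in immune cells. It measured 32.7, 29.4 and 27.1 CPM at 30 days, 25.0, 31.6 and 29.1 CPM at 60 days and 24.1, 22.4 and 23.7 CPM at 90 days. All 90-day libraries lay below all earlier ones. The difference did not pass the threshold: from 30 to 90 days the log2 value was -0.34 ± 0.12 (SE), a fold of 0.788 with an interval of 0.665 to 0.934 (edgeR adjusted p = 0.121). The summed acinar markers were likewise lower at 90 days (1545 to 1739 CPM) than in all earlier libraries (1929 to 2612 CPM), and 3 of 5 were called lower against 30 days; their part in the P2rx7 values was not tested. The level of P2rx4 relative to P2rx7 per exon length was 3.47, 3.46 and 3.46 in the 30-day libraries, 4.45, 3.67 and 2.88 at 60 days and 4.08, 3.80 and 3.56 at 90 days. The 30-day ratios were nearly equal and lay within the spread of the 60-day ratios.

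The enzymes that break down extracellular nucleotides did not pass the threshold either. Entpd1 (ENSMUSG00000048120, chromosome 19, 40612366 to 40741602, plus strand), which converts ATP to AMP and is also found on immune and endothelial cells, measured 14.1, 20.9 and 21.9 CPM at 30 days, 21.5, 23.1 and 22.5 CPM at 60 days and 19.6, 30.0 and 24.1 CPM at 90 days. The groups overlapped. The lowest value was 30-day sample 1 and the highest 90-day sample 2. These libraries had the lowest and highest macrophage sums (167 and 389 CPM), whose part in the Entpd1 values was not tested. The log2 difference from 30 to 90 days was 0.37 ± 0.17 (SE; edgeR adjusted p = 0.268), and it was 0.20 without the former library and 0.19 without the latter. Entpd2 (ENSMUSG00000015085, chromosome 2, 25395874 to 25401321, plus strand), which mainly converts ATP to ADP, measured 12.8, 13.3 and 10.8 CPM at 30 days, 14.8, 7.42 and 9.64 CPM at 60 days and 10.6, 10.3 and 8.73 CPM at 90 days. The 90-day values lay below the 30-day values, with a log2 difference of -0.31 ± 0.20 (SE; edgeR adjusted p = 0.473). Of its exon bases, 28.8% overlap exons of Npdc1 on the same strand, so its count is uncertain.

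Nt5e (ENSMUSG00000032420, chromosome 9, 88327197 to 88372092, plus strand), which makes adenosine from AMP, measured 1.42, 2.02 and 1.72 CPM at 30 days, 2.98, 1.76 and 2.25 CPM at 60 days and 2.93, 2.68 and 3.31 CPM at 90 days. All 90-day libraries lay above all 30-day libraries. The log2 difference was 0.78 ± 0.29 (SE), a 1.72-fold difference with an interval of 1.12 to 2.63 (edgeR adjusted p = 0.167). Its direction was the same under all alternatives run. Within libraries, Entpd1 exceeded Entpd2 per exon length in 3 of 9: the ratio was 0.419, 0.602 and 0.771 at 30 days, 0.554, 1.19 and 0.890 at 60 days and 0.708, 1.11 and 1.05 at 90 days. The ratios of 30 and 90 days overlapped.

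Panx1 (ENSMUSG00000031934, chromosome 9, 15002128 to 15045478, minus strand), whose channels release ATP, was barely detected. The 30-day libraries held 7, 9 and 12 reads (0.496, 0.535 and 0.710 CPM), the 60-day libraries 4, 0 and 17 reads (0.173, 0 and 0.709 CPM) and the 90-day libraries 33, 34 and 25 reads (1.11, 1.17 and 1.25 CPM). The library with 0 reads allows a level of up to 0.136 CPM, from a floor of 3 counts that covers counting error only. All 90-day libraries lay above all earlier libraries. The log2 difference was 1.96 ± 0.68 from 60 to 90 days and 1.01 ± 0.65 from 30 to 90 days (SE; edgeR adjusted p = 0.295 and 0.478). Without 60-day sample 3 the first of these was 3.65 (adjusted p = 0.0440), against a 60-day group left with 4 and 0 reads, and over all alternatives that gave an adjusted p it ranged up to 0.654.

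**Figure D4:**
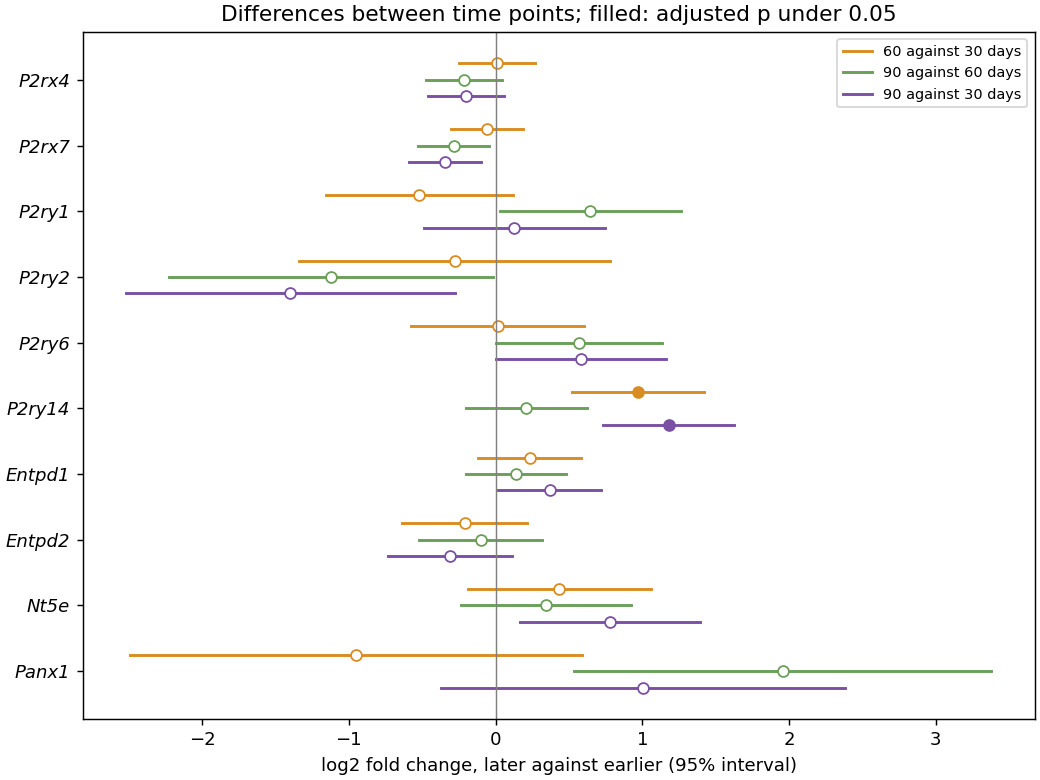
Log2 fold change of each member in the 3 pairwise contrasts, later against earlier time point, with lines for the 95% interval from the edgeR fit and filled circles for an adjusted p under 0.05. P2ry14 is filled for 60 against 30 days (0.97) and 90 against 30 days (1.18). The intervals of P2rx4 and P2rx7 are the narrowest, and those of P2ry2 and Panx1 the widest.

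Among the other genes of the pathway edgeR called 1, and DESeq2 called more. Of 13 other purinergic and adenosine receptors 10 could be tested, and 0 passed in any pairwise contrast with edgeR, DESeq2 or limma-voom. At an unadjusted p under 0.05 they numbered 3 between 30 and 60 days (12.4% of all tested genes), 1 between 60 and 90 days (10.8%) and 1 between 30 and 90 days (16.8%). Counts of the other lists are in this order, against the same percentages. The most abundant of them per exon length were P2rx6 (median 1.50 CPM per kb) and the adenosine receptor Adora1 (1.28), both under the level of P2rx7. Of 25 other genes of nucleotide breakdown and nucleoside handling 21 were tested, with 0 called by edgeR in any pairwise contrast. At an unadjusted p under 0.05 they numbered 6, 4 and 11, against 12.4%, 10.8% and 16.8% of all tested genes. DESeq2 called 1, 0 and 3 and limma-voom 0. The most abundant were the phosphatase gene Acpp at a median of 18.4 CPM per kb (15.3 to 23.1, overlapping the range of P2rx4) and the ectonucleotidase Entpd3 at 13.1, above Entpd1 and Entpd2. Acpp had a log2 difference of 0.34 ± 0.11 from 30 to 90 days (SE; edgeR adjusted p = 0.0928). These genes were named for their level, after the values had been seen.

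Of 19 other genes of ATP release 15 were tested, with 0 called by edgeR. At an unadjusted p under 0.05 they numbered 2, 2 and 4, against 12.4%, 10.8% and 16.8% of all tested genes. DESeq2 called 1, 0 and 2 and limma-voom 0. The connexin genes Gjb1 (median 42.0 CPM per kb) and Gjb2 (21.3) and the vesicular nucleotide transporter Slc17a9 (5.76) stood far above Panx1. Among 20 partners in Gq signalling, calcium release and the inflammasome, all tested, edgeR called 1, lower at 90 than at 30 days. In that contrast edgeR called 3.57% of all tested genes. At an unadjusted p under 0.05 the partners numbered 3, 5 and 6, against 12.4%, 10.8% and 16.8% of all tested genes. DESeq2 called 1, 0 and 2 and limma-voom 0, 0 and 1. The gene called by edgeR was Gna14, a G protein subunit of the Gq class (ENSMUSG00000024697, chromosome 19, 16435762 to 16610820, plus strand). It measured 15.5, 9.99 and 9.41 CPM at 30 days, 7.08, 7.19 and 6.55 CPM at 60 days and 5.87, 6.15 and 5.62 CPM at 90 days. The time points did not overlap. From 30 to 90 days Gna14 fell by 0.97 on the log2 scale (SE 0.19; edgeR adjusted p = 0.00620), and the adjusted p was 0.0579 without 30-day sample 1 and 0.0721 with library-size scaling. From 30 to 60 days the log2 difference was -0.74 ± 0.19 (SE; edgeR adjusted p = 0.0549), and it passed the threshold under 4 of 18 alternatives, DESeq2 among them (adjusted p = 0.0174), with adjusted p-values from 0.0131 to 0.351 over all 18.

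The genes whose log2 CPM followed the members most closely over the 9 libraries were sought among the genes averaging at least 1 CPM (13019 for P2ry14 and P2rx7, 13020 for Panx1), for the 3 members with the smallest p for any difference. For P2ry14 these were Hmox2 (Pearson r = 0.981), Nat14 (0.976) and Actg2 (0.975), a smooth muscle actin whose mean went from 2.45 to 4.28 and 5.42 CPM. For P2rx7 they were Etl4 (0.990), Efr3a (0.988) and Mpp5 (0.982), and for Panx1 Cars2 (0.977), Zfp939 (0.940) and I830077J02Rik (0.934). The libraries share their depth and composition across genes, and these highest values out of many genes are a description with no test. Among the members, log2 CPM of P2ry14 correlated most with that of Nt5e (r = 0.807 over 9 libraries) and was opposite to that of P2rx7 (-0.707).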

How the data were processed

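RNA sequencing reads of 9 submandibular gland samples were counted per Ensembl gene. The authors deposited raw read counts, whole numbers with no normalization. Per the submitters' processing notes, fastp, STAR, featureCounts and the build mm10 were used; versions, annotation, strand setting and filters are not given in the sources used here. The table's other 3 columns could not be matched to a listed sample and were left out. Symbols were found for 54409 identifiers.

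Genes were filtered with filterByExpr (minimum count 10), scaled by TMM and tested with edgeR 4.0.16 (R 4.3.3) by the robust quasi-likelihood test over all 9 libraries, with time point as the only term and Benjamini-Hochberg adjustment over 15224 genes at a threshold of 0.05. Standard errors and 95% intervals come from the same fit. Replicates of a time point differed by more than counting noise (chi-square per degree of freedom of 10.2 or more). Positions and exon lengths are from GENCODE M21 and start windows from RefSeq, both GRCm38, the build mm10. The code of the test was also run on simulated counts with the same spread for every gene. That setting differs from these data, so no conclusion about genes with few reads is drawn from it. The alternatives were DESeq2 1.42.0, scaling by its type of size factors or by library totals, limma-voom (limma 3.58.1), other filters, the 6 samples of a contrast, each sample left out and the sample number as a block; thinning to equal depth was added after seeing the data. Members and gene lists were chosen with earlier results of these data known. The named genes are all members, other pathway genes with an adjusted p under 0.05, and the 3 genes most correlated with each of 3 members. Figures were drawn with matplotlib 3.10.9.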

Additional observations from a re-analysis of the deposited data

How the results depend on the processing

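The rise of P2ry14 from 30 to 90 days kept its call and direction under all 18 alternatives, with log2 values of 1.07 to 1.40. For 60 against 30 days the number of members called was 1, and 0 with library-size scaling, limma-voom or the 6 samples alone, and it ran from 0 to 1 when single samples were left out; the direction of P2ry14 did not turn. For 90 against 60 days it ran from 0 to 1 over left-out samples (Panx1, without 60-day sample 3), and for any difference from 0 (without 30-day sample 1 or 2) to 2 (without 60-day sample 3). For the other 9 members, 2 of 631 values under an alternative had an adjusted p under 0.05, both of Panx1. Of these values, 16 changed sign, none of them past the threshold in either fit. From 30 to 60 days, leaving out single samples gave log2 values of -0.076 to 0.14 for P2rx4, -0.13 to 0.030 for P2rx7, -0.65 to 0.31 for P2ry2 and -0.17 to 0.18 for P2ry6. From 60 to 90 days they ran from -0.045 to 0.27 for Entpd1 and -0.31 to 0.21 for Entpd2, and from 30 to 90 days from -0.15 to 0.29 for P2ry1. Library-size scaling gave 0.0012 for P2rx7 from 30 to 60 days, 0.083 for Entpd2 from 60 to 90 days and 0.034 for P2rx4 from 30 to 90 days, and thinning gave -0.018 for P2ry6 from 30 to 60 days. The cause of these changes was not tested.

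Over all genes, the calls for 60 against 30 days numbered 238, with 90 under library-size scaling, 376 with DESeq2, 459 with no filter and 73 to 244 over left-out samples. For 90 against 60 days they numbered 39, with 150, 354 and 16 to 103 in the last 3 settings, and 92 with the sample number as a replicate block. For 90 against 30 days they numbered 544, with 867, 1045 and 184 to 703, and for any difference 501, with 277 under library-size scaling, 847, 1194 and 220 to 683. The replicate block changed no call of a member. Of 9 pairs with equal sample numbers 1 had a correlation of deviations over 0.1, and 4 of 9 libraries correlated best with their own number, so the numbers were not taken to pair the samples. Counts of 0 to 34 reads per library limit P2ry2 and Panx1.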
